A study of Mus musculus with 3 samples.

Results

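A set of 136 CDR3α amino acid sequences was found in thymic cells of the regulatory T cell (Treg) lineage and in no CD4 single-positive (CD4 SP) or CD4+CD8+ double-positive (DP) cell of the same pool. They were taken from 3237 different CDR3α in 6982 cells with exactly 1 productive TCRα chain. A sequence was included when 2 or more cells of the 4 Treg-lineage populations carried it, at least 1 of them a Treg, and when no CD4 SP or DP cell did. Of the 3237, 281 met the terms on Treg-lineage cells, and 136 of these (48.4%) were absent from CD4 SP and DP. That absence and the presence in at least 2 Treg-lineage cells are how the sequences were chosen and are not results. The remaining 145 of the 281, called shared here, and 137 CDR3α in 2 or more CD4 SP or DP cells and in no Treg-lineage cell, called CD4 SP- or DP-only, serve for comparison.

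The cells were thymocytes of 8 female mice aged 7 to 12 weeks, pooled before sorting. All mice carried the TCliβ transgene, which fixes the TCRβ chain, had a single functional TCRα allele (TCRα+/-) and bore a Foxp3-GFP reporter. A gate on the Vα2 protein, which TRAV14 genes encode, narrowed the TCRα repertoire of each population. The populations were CD73+ Tregs, CD73- Tregs, progenitors of Tregs with CD25 (CD25+ TRP) or with low Foxp3 (Foxp3lo TRP), CD4 SP cells and DP cells, each stained with its own hashtag antibody. DP cells came from whole thymus and all others from thymus depleted of CD8+ cells. With 1 pool and 1 sorted sample per population there is no replicate spread and no test. Brackets give exact Clopper-Pearson 95% intervals, which cover counting error only, since neither the cells of a clone nor the sequences of a list are independent replicates. The labels do not say which mouse a cell came from. The rows of the expression matrix as used here carry no gene name, so the sort could not be checked against Foxp3 or other markers and the authors' 15 clusters stay numbers.

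The TCRα chain is assembled in DP thymocytes by joining a V to a J segment. Enzymes trim the ends and terminal deoxynucleotidyl transferase adds bases that neither segment encodes, and the joint forms the CDR3 loop that touches the presented peptide. The same amino acid CDR3 can thus arise from different joints in different cells. Thymocytes with intermediate to high affinity for self peptides can turn on CD25 or Foxp3 and become Tregs, and CD73 marks Tregs that have matured or have come back to the thymus from the periphery.

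The joints of the leading sequences are printed because they show how 1 amino acid sequence was built more than once. Bases run 5′ to 3′ from the codon of the conserved cysteine to the last CDR3 codon. Capitals mark bases that match neither the germline V end nor the germline J start (GENCODE M21 transcripts, GRCm38). They are called added or non-templated bases here, whatever their origin, since the match does not tell which step gave them. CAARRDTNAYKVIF, the sequence in the most cells, was made from TRAV14-1 and TRAJ30 with 6 nucleotide sequences, all of which differ within the joint.
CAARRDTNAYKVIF joint 1: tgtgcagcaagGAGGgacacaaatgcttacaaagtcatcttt
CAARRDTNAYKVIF joint 2: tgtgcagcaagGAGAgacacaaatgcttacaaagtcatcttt
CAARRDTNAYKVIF joint 3: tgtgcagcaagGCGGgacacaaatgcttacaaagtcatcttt
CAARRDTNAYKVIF joint 4: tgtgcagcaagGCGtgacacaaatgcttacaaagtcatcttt
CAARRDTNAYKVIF joint 5: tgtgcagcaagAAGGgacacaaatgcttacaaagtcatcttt
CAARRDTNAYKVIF joint 6: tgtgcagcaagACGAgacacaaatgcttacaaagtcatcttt
Joint 1 was found in 6 cells: 3 CD73+ Tregs, 1 CD73- Treg and 2 CD25+ TRP. Joint 4 was found in 1 CD73+ Treg and 2 Foxp3lo TRP cells, and joint 2 in 3 CD73+ Tregs alone.

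CAASLDYSNNRLTL, made from TRAV14D-3-DV8 and TRAJ7, had 5 nucleotide sequences in 8 cells.
CAASLDYSNNRLTL joint 1: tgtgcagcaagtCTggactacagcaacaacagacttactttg
CAASLDYSNNRLTL joint 2: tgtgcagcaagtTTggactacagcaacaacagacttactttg
CAASLDYSNNRLTL joint 3: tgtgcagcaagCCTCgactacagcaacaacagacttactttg
CAASLDYSNNRLTL joint 4: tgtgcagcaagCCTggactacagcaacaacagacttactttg
CAASLDYSNNRLTL joint 5: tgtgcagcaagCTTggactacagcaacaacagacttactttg
The opposite case is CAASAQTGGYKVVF (TRAJ12), whose 6 cells shared a single CDR3 nucleotide sequence but were assigned 6 different TRAV14 copies. The other single-sequence case among the leading 12 has 15 residues, was made from TRAV14D-3-DV8 and TRAJ4, and was found in 1 CD73- Treg, 2 CD25+ TRP and 3 Foxp3lo TRP cells. A final pair, picked after their values were seen, shows the extremes of the joint, with no added base in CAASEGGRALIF (TRAJ15) and 12 in a sequence of 15 residues made from TRAV14N-3 and TRAJ9.
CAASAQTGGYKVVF: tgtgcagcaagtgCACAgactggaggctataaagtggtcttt
The 15-residue TRAJ4 sequence: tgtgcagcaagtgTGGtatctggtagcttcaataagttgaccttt
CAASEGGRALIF: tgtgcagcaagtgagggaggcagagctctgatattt
The 15-residue TRAJ9 sequence: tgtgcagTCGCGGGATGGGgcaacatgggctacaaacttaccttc

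The segments behind these joints lie on the plus strand of mouse chromosome 14 in GRCm38, where each is annotated as a TCR V or J gene. The V copies run from TRAV14D-2 at chr14:52948568-52949169 through TRAV14D-3-DV8 at chr14:53078452-53079045 and TRAV14-1 at chr14:53554022-53554558 to TRAV14-3 at chr14:53763173-53763694. TRAJ30 lies at chr14:54189866-54189924, TRAJ22 at chr14:54197248-54197307, TRAJ9 at chr14:54209393-54209450 and TRAJ7 at chr14:54211470-54211528. The constant gene TRAC follows at chr14:54220521-54224206. TRAV14D-2 and TRAV14N-2 did not differ at any of the last 250 germline bases compared, so which of these copies a chain used is uncertain.

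The 136 restricted CDR3α were carried by 426 cells. They were found in 210 of 1057 CD73+ Tregs (19.9%, 17.5 to 22.4) and 45 of 223 CD73- Tregs (20.2%, 15.1 to 26.1). Among progenitors, 113 of 1783 CD25+ TRP cells carried one (6.34%, 5.25 to 7.57), as did 58 of 804 Foxp3lo TRP cells (7.21%, 5.52 to 9.23). The rule asks for a Treg cell and so favours Tregs, and the larger share in Tregs is not read as a result. It left out 89 CDR3α in 2 or more Treg-lineage cells that had no Treg and no CD4 SP or DP cell. The shared CDR3α were chosen by the same term and covered 41.8% of CD73+ Tregs, 39.0% of CD73- Tregs, 33.7% of CD25+ TRP and 36.2% of Foxp3lo TRP cells. A smaller part of them was in only 2 Treg-lineage cells, so they do not gauge how far the term favours Tregs.

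Most restricted CDR3α were rare. Of the 136, 77 (56.6%) were in 2 cells, 24 in 3, 24 in 4 or 5 and 11 in 6 to 17, and 65 had only 1 Treg cell. Among shared CDR3α, 27 of 145 (18.6%) were in 2 Treg-lineage cells. A count of 0 among 3115 CD4 SP and DP cells allows a share of up to 0.0963%. Since the members were picked from 281 sequences for being at 0, nothing about any single member is read from its absence in CD4 SP and DP.

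**Figure D1:**
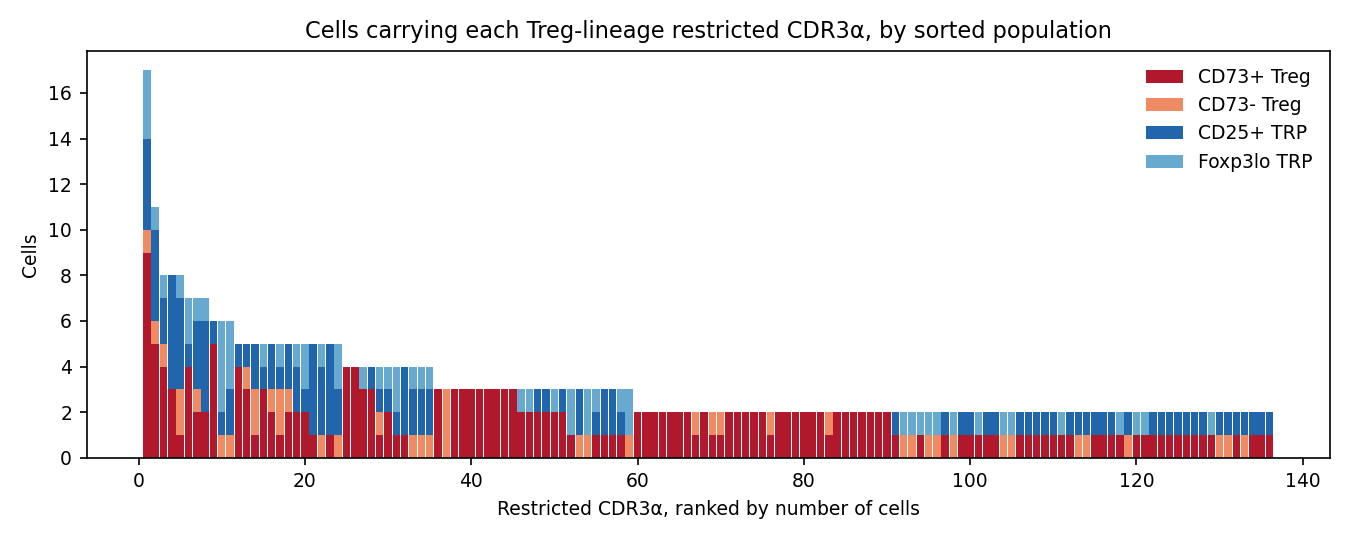
Each bar is 1 of the 136 restricted CDR3α, ranked by the number of cells that carry it, with cells stacked by sorted population (y axis, cells). Bars fall from 17 cells to 2 cells, and 77 of the 136 stand at 2.

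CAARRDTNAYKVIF was carried by 9 CD73+ Tregs, 1 CD73- Treg, 4 CD25+ TRP and 3 Foxp3lo TRP cells. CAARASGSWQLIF (TRAJ22, TRAV14-1 and TRAV14N-1) followed with 5, 1, 4 and 1 cells in the same populations. These were the most frequent, and both were present in all 4 populations, as were 7 members in all. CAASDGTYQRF (TRAJ13) had 4, 1, 2 and 1 cells, CAASLDYSNNRLTL had 1, 2, 4 and 1, and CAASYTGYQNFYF (TRAJ49, TRAV14-1) had 2, 1, 3 and 1. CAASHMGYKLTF (TRAJ9, TRAV14D-3-DV8) was in 3 CD73+ Tregs and 5 CD25+ TRP cells and in no cell of the other Treg-lineage populations. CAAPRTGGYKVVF (TRAJ12) was in 4 CD73+ Tregs, 1 CD25+ TRP and 2 Foxp3lo TRP cells, and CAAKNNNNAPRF (TRAJ43) in 2, 4 and 1 of these. Thus progenitors made up much of some leading sequences and little of others. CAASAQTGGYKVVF was in 5 CD73+ Tregs and 1 CD25+ TRP cell, and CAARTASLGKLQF (TRAJ24, TRAV14-1) in 4 and 1. A further TRAJ12 member of 13 residues, from TRAV14D-2 and TRAV14N-2, was in 1 CD73- Treg, 1 CD25+ TRP and 4 Foxp3lo TRP cells, with no CD73+ Treg.

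Over all 136, 49 (36.0%, 28.0 to 44.7) were also seen in CD25+ TRP but not in Foxp3lo TRP cells, 21 (15.4%, 9.82 to 22.6) in Foxp3lo TRP but not in CD25+ TRP, and 23 (16.9%, 11.0 to 24.3) in both. The remaining 43 (31.6%, 23.9 to 40.1) were in no progenitor cell. Among the 145 shared CDR3α the corresponding counts were 56 (38.6%), 12 (8.28%), 71 (49.0%, 40.6 to 57.4) and 6 (4.14%, 1.53 to 8.79). Presence in both progenitors was thus less common, and absence from both more common, among restricted sequences, with intervals apart, but restricted sequences were in fewer cells and so had fewer chances to be seen. Within Tregs, 96 were in CD73+ but not CD73- Tregs, 24 in CD73- but not CD73+ Tregs and 16 in both. CD73- Tregs were the smallest population, with 223 cells. A population of its own held 38 members, 37 of them CD73+ Tregs.

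TRAJ30, with 9 members, and TRAJ9, with 8, took a larger share of restricted CDR3α than of either comparison list, but no J segment had intervals apart between the lists. TRAJ30 was used by 6.62% of restricted (3.07 to 12.2), 2.07% of shared (0.429 to 5.93) and 3.65% of CD4 SP- or DP-only CDR3α (1.20 to 8.31), each sequence counted once. TRAJ9 was used by 5.88% (2.57 to 11.3), 2.07% and 1.46% of the same lists. With clonotypes defined by CDR3 nucleotide sequence, V and J in place of the amino acid CDR3, TRAJ9 took 1.99% of restricted clonotypes (0.412 to 5.70), and TRAJ30 took 5.96% (2.76 to 11.0). By cells, TRAJ30 took 38 of 426 cells with a restricted and 18 of 1421 Treg-lineage cells with a shared CDR3α, and the first member alone gave 17 of the 38. TRAJ26 was the J of the most members, 11 (8.09%, 4.11 to 14.0), against 13.1% of shared and 2.19% of CD4 SP- or DP-only sequences. TRAJ15 had 9 members, and TRAJ22 and TRAJ4 had 8 each. TRAJ48 (named after its values were seen) had 4 members and no sequence in either comparison list, with intervals that overlapped.

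All but 1 of the 136 used a TRAV14 copy for most of their cells. The exception was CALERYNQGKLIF (named after its values were seen), which was built from TRAV13-1 and TRAJ23 by 2 joints, in 1 CD73+ Treg and 1 CD25+ TRP cell. TRAV14-1 was the leading copy of 42 members (30.9%, 23.2 to 39.4), against 20.0% of shared (13.8 to 27.4) and 20.4% of CD4 SP- or DP-only sequences (14.0 to 28.2). TRAV14D-3-DV8 led in 28 members (20.6%, against 26.2% and 19.0%), TRAV14N-1 in 17 (12.5%, against 23.4% and 16.1%), TRAV14-2 in 16, TRAV14-3 in 12 and TRAV14N-3 in 11. No single copy had intervals apart. The 3 copies without D or N in their name, which lie nearest the J segments, together led in 51.5% of restricted (42.8 to 60.1) and 33.1% of shared sequences (25.5 to 41.4), whose intervals lie apart, and in 52.6% of CD4 SP- or DP-only sequences (43.9 to 61.1). By copy group the restricted list thus lay near the CD4 SP- or DP-only list.

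Mean length did not set the restricted sequences apart, but the SD was larger. The mean was 13.2 ± 1.26 residues in restricted (SD over 136 sequences), 13.2 ± 1.01 in shared (145) and 13.5 ± 1.17 in CD4 SP- or DP-only sequences (137). Loops of 12 residues made up 25.0% of restricted (34 of 136, 18.0 to 33.1), 10.3% of shared (5.91 to 16.5) and 13.1% of CD4 SP- or DP-only sequences (7.98 to 20.0), with intervals apart from the shared list only. Loops of 15 or 16 residues made up 13.2% (8.04 to 20.1), 5.52% (2.41 to 10.6) and 16.1% (10.3 to 23.3). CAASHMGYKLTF and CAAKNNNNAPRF are 12-residue members, and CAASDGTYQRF has 11 residues.

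Restricted CDR3α had more added bases than shared CDR3α, and the CD4 SP- or DP-only list lay between. For each CDR3α the joint with the fewest non-templated bases in any of its cells was taken. The mean was 2.81 ± 1.88 bases in restricted, 1.58 ± 1.39 in shared and 2.15 ± 1.47 in CD4 SP- or DP-only sequences (SD over sequences). Every joint seen had 5 or more such bases in 19 of 136 members (14.0%, 8.63 to 21.0), against 1.38% of shared (0.167 to 4.89) and 4.38% of CD4 SP- or DP-only sequences (1.62 to 9.29). A joint with at most 2 such bases was seen in 45.6% of restricted (37.0 to 54.3), 73.1% of shared (65.1 to 80.1) and 59.9% of CD4 SP- or DP-only sequences (51.1 to 68.1). By both shares the restricted list had intervals apart from the shared list and overlapping with the CD4 SP- or DP-only list. A joint without an added base was seen in 13 members (9.56%), among them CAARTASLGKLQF, against 28.3% and 13.9%. Frequent sequences offer more joints from which to take the fewest, so the lists were also compared at 2 cells each, Treg-lineage cells for restricted and shared and CD4 SP or DP cells for the third list. A shared sequence also has CD4 SP or DP cells by definition, so its total number of cells was not matched. At 2 cells the means were 2.97 for 77 restricted, 1.85 for 27 shared and 2.29 for 98 CD4 SP- or DP-only sequences. With joints averaged within each CDR3α in place of the fewest, they were 3.06, 2.18 and 2.43 over the whole lists. Over all different rearrangements of a population, whatever their list, the mean was 3.15 in CD73+ Tregs, 3.21 in CD73- Tregs, 3.15 in CD25+ TRP, 3.25 in Foxp3lo TRP, 3.08 in CD4 SP and 2.98 in DP cells. These population means count each rearrangement once and include CDR3α seen in 1 cell, so they are unlike the list means. With joints averaged, the restricted list (3.06) lay within their range. The shared list (2.18) and the CD4 SP- or DP-only list (2.43) both lay below it.

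**Figure D2:**
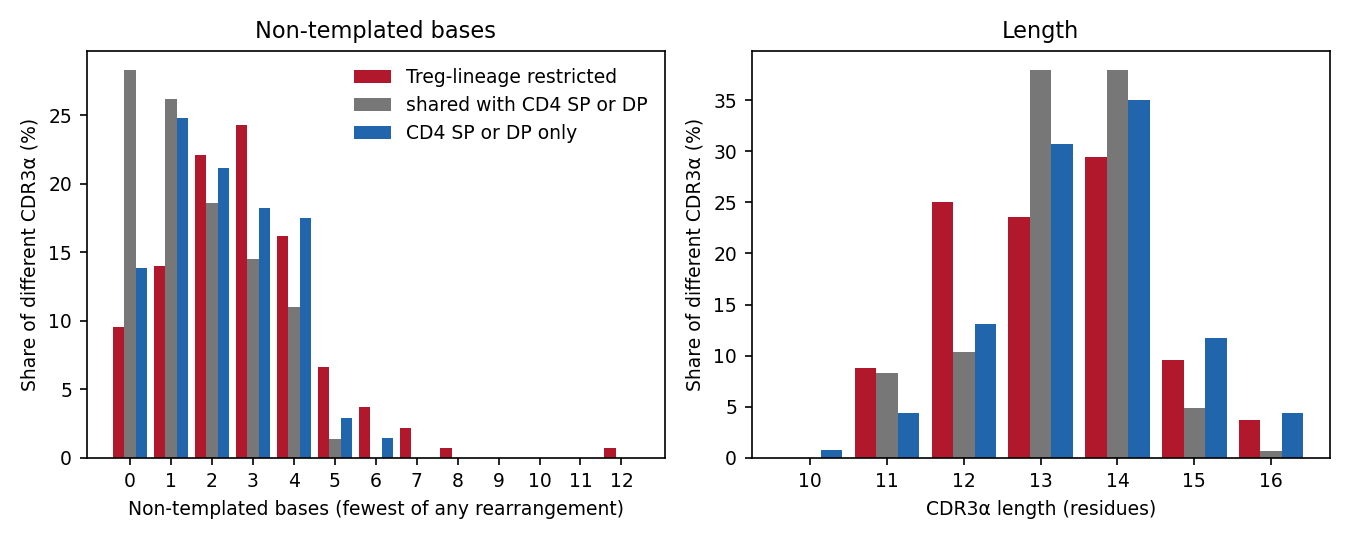
Bars give the share of different CDR3α (y axis, percent) by the fewest non-templated bases of any joint (left) and by length in residues (right) for the 3 lists. Sequences seen with a joint that had no added base were 9.56% of restricted, 28.3% of shared and 13.9% of CD4 SP- or DP-only CDR3α, and 12-residue loops were 25.0%, 10.3% and 13.1%.

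An arginine or lysine inside the loop, from the fourth residue to the fifth from the end, was present in 39.7% of restricted (31.4 to 48.4), 32.4% of shared (24.9 to 40.7) and 21.9% of CD4 SP- or DP-only sequences (15.3 to 29.8). It set the restricted list apart from the CD4 SP- or DP-only list but not from the shared list. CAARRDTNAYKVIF, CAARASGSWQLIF and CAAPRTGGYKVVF are leading members of this kind. Aspartate or glutamate was present in 27.2%, 18.6% and 19.7%, and net charge averaged 0.125 ± 0.847, 0.159 ± 0.723 and 0.0292 ± 0.706 (SD), with no list apart. A cysteine after the conserved first residue, known from mouse studies to mark strongly self-reactive thymocytes, was present in 1 restricted, 0 shared and 1 CD4 SP- or DP-only sequence.

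Most restricted CDR3α were encoded by more than 1 nucleotide sequence. This was so for 82 of 136 (60.3%, 51.6 to 68.6), and for 119 of 145 shared sequences (82.1%, 74.8 to 87.9), while each of the 136 used 1 J segment throughout. A CDR3α in more cells can show more joints. Among those in 2 Treg-lineage cells, 51.9% of restricted (40.3 to 63.5) and 63.0% of shared sequences (42.4 to 80.6) had 2 nucleotide sequences. Among those in 6 to 17 cells, 81.8% (48.2 to 97.7) and 95.9% (86.0 to 99.5) had at least 2. At no size were the intervals apart. Counted with the V copy as well, 98 of 136 (72.1%) had 2 or more rearrangements and 31 had 3 or more.

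**Figure D3:**
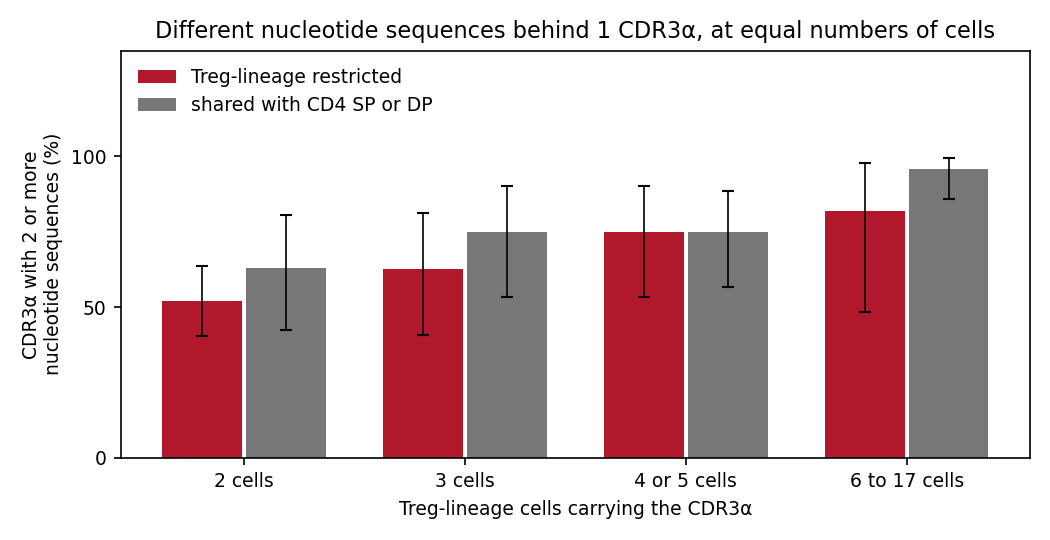
Bars give the share of CDR3α (y axis, percent) encoded by 2 or more different nucleotide sequences, by the number of Treg-lineage cells that carry the CDR3α (x axis), with exact 95% intervals. In 2 cells the shares were 51.9% for restricted and 63.0% for shared sequences, and the intervals overlap at each size.

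Different joints of a restricted CDR3α tended to use the same V copy. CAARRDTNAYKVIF used TRAV14-1 for all 6 joints, CAASLDYSNNRLTL used TRAV14D-3-DV8 for all 5 and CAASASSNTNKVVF (TRAJ34) used TRAV14-1 for all 5. Others mixed copies. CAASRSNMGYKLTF (TRAJ9) had 3 joints on 3 copies, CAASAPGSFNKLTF (TRAJ4) and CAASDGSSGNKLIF (TRAJ32) had 3 joints on 2 copies each, and a TRAJ40 member of 14 residues had 4 joints on 3 copies. Of the 82 members with several nucleotide sequences, 41 (50.0%) used 1 V copy throughout, against 42 of 119 shared sequences (35.3%), or 40 of 106 (37.7%) among those in at most 17 cells. Averaged per CDR3α, 59.3% of the pairs of joints shared a V copy in restricted and 57.1% in shared sequences. Pooled over all pairs, the shares were 66.3% and 49.9%, or 52.3% for shared sequences in at most 17 cells. The lists were thus close by the average per CDR3α and further apart by the other measures. Of pairs of different CDR3α in Treg-lineage cells, 16.2% shared a V copy. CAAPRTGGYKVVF and the other 13-residue TRAJ12 member described above used only TRAV14D-2 and TRAV14N-2, copies that could not be told apart over the bases compared.

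Of the 93 restricted CDR3α found in a progenitor, 57 had the same CDR3 nucleotide sequence in a progenitor cell and in a Treg, and 40 had it with the same V and J. In the rest, the Treg and progenitor cells carrying the CDR3α came from different joints. In a pool of 8 mice, cells of 1 clone and separate rearrangements with the same joint cannot be told apart.

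Some restricted CDR3α fell into small groups of look-alikes, but fewer than in the shared list. Of the 136, 36 (26.5%, 19.3 to 34.7) had another member of equal length that differed at 1 residue. Within their own lists, 96 of 145 shared (66.2%, 57.9 to 73.8) and 50 of 137 CD4 SP- or DP-only sequences (36.5%, 28.4 to 45.1) had such a neighbour. The interval of the restricted list lies apart from that of the shared list and overlaps with that of the CD4 SP- or DP-only list. The 36 made 14 groups, each with a single TRAJ. The largest were 5 TRAJ13 sequences around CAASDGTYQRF, namely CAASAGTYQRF, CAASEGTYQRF, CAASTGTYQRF and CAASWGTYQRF, with 5, 5, 3 and 2 cells. The next were 4 TRAJ30 sequences: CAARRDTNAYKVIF with 17 cells, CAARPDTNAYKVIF with 5, and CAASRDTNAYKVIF and 1 other with 2 each. Other neighbours of these leading members were not restricted. Of the 6 neighbours of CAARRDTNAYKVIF, 3 were also in CD4 SP cells, among them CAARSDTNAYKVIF with 1 CD25+ TRP, 1 Foxp3lo TRP and 1 CD4 SP cell. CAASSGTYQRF, a neighbour of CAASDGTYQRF, was in 10 CD73+ Tregs, 10 CD25+ TRP and 4 CD4 SP cells.

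Most members had a neighbour that was seen in at least 1 CD4 SP or DP cell, whether or not Treg-lineage cells carried that neighbour too. Of the 136 members, 110 (80.9%, 73.3 to 87.1) had a neighbour that was carried by a CD4 SP or DP cell, against 98.6% of shared (95.1 to 99.8) and 89.1% of CD4 SP- or DP-only sequences (82.6 to 93.7). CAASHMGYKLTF had 4 neighbours, carried together by 30 Treg-lineage and 42 CD4 SP or DP cells. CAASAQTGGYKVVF had 6, carried by 47 and 58. The neighbours of CAASLDYSNNRLTL lay the other way, with 115 Treg-lineage and 7 CD4 SP or DP cells, of which 102 and 2 carried CAASADYSNNRLTL, a shared sequence by the rule. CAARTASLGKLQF and the 15-residue TRAJ4 sequence had 1 neighbour each, in 1 Treg-lineage cell and no CD4 SP or DP cell.

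Just outside the rule stood 55 CDR3α that met every other term but had 1 CD4 SP or DP cell. The one in the most cells was CAASAGYSNNRLTL (TRAJ7, TRAV14D-3-DV8), with 72 CD73+ Tregs, 2 CD73- Tregs, 24 CD25+ TRP, 1 Foxp3lo TRP and 1 DP cell. That DP cell was in cluster 7 and had 4740 expression UMIs, more than 97.2% of DP cells, and its nucleotide sequence was also in 10 Treg-lineage cells. Its hashtag call was not tested. The next were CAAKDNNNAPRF (TRAJ43) with 14 Treg-lineage cells and 1 CD4 SP cell, a 14-residue TRAJ22 sequence with 11 and 1 DP cell, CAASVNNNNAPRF (TRAJ43) with 11 and 1 CD4 SP cell, and a 13-residue TRAJ30 sequence with 10 and 1 DP cell. Just inside stood the 77 members with 2 cells and the 65 with 1 Treg cell.

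CD73+ Tregs with a restricted CDR3α were more often in cluster 9 than those with a shared CDR3α. Cluster 9 held 72 of 210 CD73+ Tregs with a restricted CDR3α (34.3%, 27.9 to 41.1) and 162 of the 847 with any other CDR3α (19.1%, 16.5 to 21.9). Among the 847, it held 36 of the 442 with a shared CDR3α (8.14%, 5.77 to 11.1). The shared cells thus lower the share of the any-other group. Cells with neither a restricted nor a shared CDR3α therefore lay in cluster 9 more often than the 19.1% of the whole 847. The excess over any other CDR3α is thus not read as a trait of restricted CDR3α. Cluster 3, which held the most CD73+ Tregs, took 28.1% of cells with a restricted (22.1 to 34.7), 36.5% of those with any other (33.2 to 39.8) and 42.3% of those with a shared CDR3α (37.7 to 47.1). The interval of the restricted list overlaps with that of any other CDR3α and lies apart from that of the shared list. Read the other way, 30.8% of cluster 9 cells (24.9 to 37.1) and 16.8% of CD73+ Tregs elsewhere (14.3 to 19.5) carried a restricted CDR3α. A shared CDR3α was carried by 15.4% (11.0 to 20.7) and 49.3% (45.9 to 52.8) of the same cells. The 72 cells carried 40 different members, and 16 members had cells in cluster 9 alone. The cells did not differ much in depth, with median expression UMIs of 2873 with a restricted and 2975 with another CDR3α.

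The cluster 9 cells were concentrated among members without a progenitor cell. In the 43 members of this kind, cluster 9 held 54 of 92 CD73+ Tregs (58.7%, 47.9 to 68.9), and in the 93 members with a progenitor cell 18 of 118 (15.3%, 9.30 to 23.0). The 43 also had more added bases, with a mean of 3.56 ± 2.38 against 2.46 ± 1.48 (SD over sequences), and fewer had 2 or more nucleotide sequences (41.9%, 27.0 to 57.9, against 68.8%, 58.4 to 78.0). Of the 43, 31 were in 2 cells, compared with 46 of the 93. At 2 cells, 41.9% (24.5 to 60.9) and 58.7% (43.2 to 73.0) had 2 nucleotide sequences. Added bases were not compared at equal numbers of cells between these groups. The 43 had 100 cells and the 93 had 326, and more cells offer more joints from which to take the fewest. Without the cells of cluster 9, 100 members remained, with a mean of 2.61 ± 1.60 added bases. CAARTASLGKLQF had 3 of its 5 cells in cluster 9, whereas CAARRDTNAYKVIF and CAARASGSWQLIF had none there, and 6 of the 11 cells of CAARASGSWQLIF were in cluster 3.

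In the progenitors, restricted CDR3α were found less in cluster 1 of CD25+ TRP and more in cluster 12 of CD25+ TRP and cluster 3 of Foxp3lo TRP cells. Of CD25+ TRP cells, cluster 1 held 3.54% of those with a restricted (4 of 113, 0.973 to 8.82) and 16.8% of those with another CDR3α (15.1 to 18.7), and cluster 12 held 10.6% (5.61 to 17.8) and 4.49% (3.55 to 5.60). Clusters 5 and 7, the main CD25+ TRP clusters, held 30.1% and 28.3% of cells with a restricted and 25.1% and 19.5% of cells with another CDR3α. Of Foxp3lo TRP cells, cluster 3, the main cluster of both Treg populations, held 17.2% of those with a restricted (8.59 to 29.4) and 3.75% of those with another CDR3α (2.51 to 5.38). No cluster had intervals apart in CD73- Tregs. Median expression UMIs with a restricted and another CDR3α were 3419 and 3194.5 in CD25+ TRP and 2246 and 2131 in Foxp3lo TRP cells. CD4 SP cells with 1 α chain, whose CDR3α the rule leaves out, lay in cluster 1 (38.2%, 36.0 to 40.5) and as often in cluster 2 (38.6%, 36.3 to 40.8). Cluster 2 held 13 of 113 CD25+ TRP cells with a restricted (6.27% to 18.9%) and 284 of 1670 with another CDR3α (15.2% to 18.9%), with intervals that overlap. The part of the rule in these cluster shares was not tested.

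**Figure D4:**
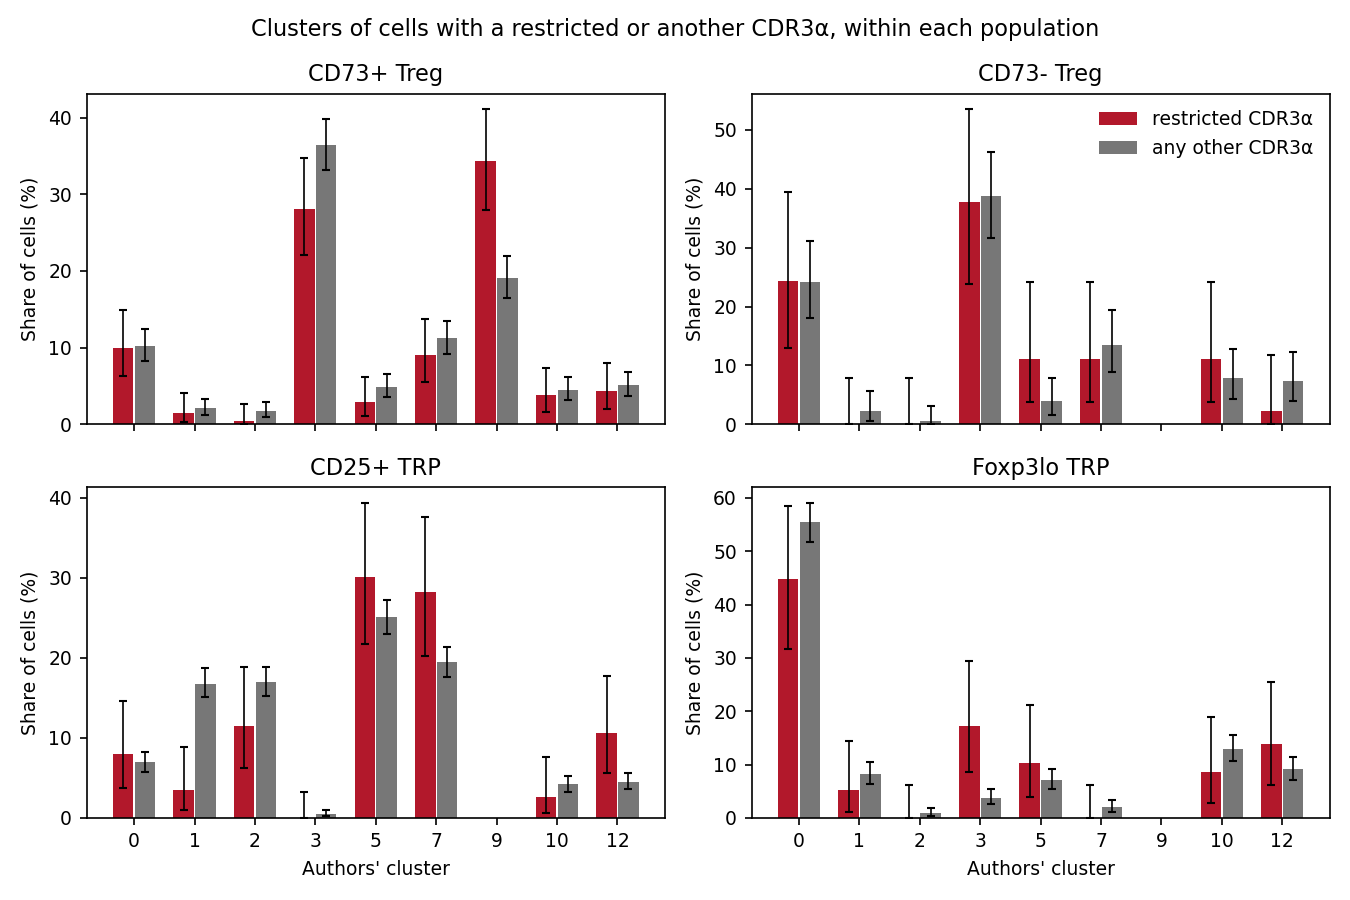
Bars give the share of cells (y axis, percent) in each of the authors' larger clusters for cells with a restricted and cells with any other CDR3α, within each Treg-lineage population, with exact 95% intervals. In CD73+ Tregs cluster 9 held 34.3% and 19.1%, and in CD25+ TRP cluster 1 held 3.54% and 16.8%. Any other CDR3α includes the shared ones, of whose CD73+ Tregs cluster 9 held 8.14%.

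The rule used cells with 1 productive α chain, which leaves 330 cells with 2 as cells not used to choose the members. The mice had a single functional TCRα allele, and in each of the 6 populations cells with 2 chains had more expression UMIs than cells with 1. The medians were 5761 and 2938 in CD73+ Tregs, 7550 and 2736 in CD73- Tregs, 6504 and 3218 in CD25+ TRP, 4010.5 and 2139 in Foxp3lo TRP, 5348.5 and 2735 in CD4 SP and 3010.5 and 1566 in DP cells. The part of doublets in the shares that follow was not tested. A restricted CDR3α was 1 of the chains in 33 of 200 such Treg-lineage cells (16.5%, 11.6 to 22.4), by 24 different members, and in 2 of 130 such CD4 SP and DP cells (1.54%, 0.187 to 5.45). By population they were in 21 of 66 CD73+ Tregs (31.8%, 20.9 to 44.4), 0 of 11 CD73- Tregs, 7 of 79 CD25+ TRP (8.86%, 3.64 to 17.4), 5 of 44 Foxp3lo TRP (11.4%, 3.79 to 24.6), 0 of 88 CD4 SP and 2 of 42 DP cells (4.76%, 0.582 to 16.2). The 0 of 88 allows a share of up to 3.41%, and the 0 of 11 up to 27.3%. CD4 SP- or DP-only CDR3α, for comparison, were in 13 of the 200 (6.50%, 3.51 to 10.9) and 10 of the 130 (7.69%, 3.75 to 13.7). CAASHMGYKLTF was in 3 of the Treg-lineage cells with 2 chains and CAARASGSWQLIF in 2. The member had more UMIs than the other chain in some of these cells and fewer in others. In 1 CD73+ Treg, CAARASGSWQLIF had 58 UMIs and the other chain 4. Another CD73+ Treg carried 2 members, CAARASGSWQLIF with 49 UMIs and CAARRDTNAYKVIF with 5. The DP cells carried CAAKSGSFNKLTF (TRAJ4), which had 5 Treg-lineage cells by the rule and 3 more here, and a 14-residue TRAJ37 member, which had 4 CD73+ Tregs. Of the 21 CD73+ Tregs, 12 were in cluster 9, which held 35 of the 66.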

How the data were processed

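The authors deposited UMI counts per gene row and cell (12208 cells, 34190869 UMIs, medians per population from 1457 to 3248), a metadata table with each cell's hashtag population and cluster number, and contig annotations with read and UMI counts per TCR chain. Cell Ranger 3.1.0, Seurat 3.1.1 and mm10/GRCm38 are named per the submitters' processing notes; no source used here gives the cell filters or doublet handling. Of 12771 barcodes with a contig, 7379 were in the count table. Metadata rows were tied to barcodes by order, which matched clonotypes in 6982 of 6982 cells. A hashtag class called Treg was taken to be the CD73- Tregs. Added bases were found by extending each CDR3 from its germline V end, then from its J start. Shares have Clopper-Pearson 95% intervals; a count of 0 allows 3 cells. No model across genes was fitted and no test made. Scripts (Python 3.11.15, pandas 2.3.3, SciPy 1.17.1) were checked on simulated data. Members, lists and alternatives were chosen with earlier results of these data known. Named were the 12 members in the most cells, up to 12 with 3 or more rearrangements, members in 2-chain CD4 SP or DP cells, the 5 leading sequences 1 cell outside the rule, the 6 leading TRAJ and TRAV, and neighbours of leading members. Some CDR3, among them all of 15 or more residues, are given by segments, length or bases in place of residues. Alternatives were the clonotype definition, all α chains, at least 2 α UMIs, 3 cells, 1 CD4 SP or DP cell allowed, TRAV14 only, and removal of cluster 9 or of the 5% of cells with the most UMIs.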

Additional observations from a re-analysis of the deposited data

Results flagged for a closer look

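Cells with 2 productive α chains were not used to choose the sequences, and restricted CDR3α appeared in 16.5% of those of the Treg lineage (33 of 200), above the 1.54% of those in CD4 SP and DP (2 of 130). The mice had a single functional TCRα allele, and cells with 2 chains had more expression UMIs than cells with 1 in each population. In some of the 2-chain cells the member had fewer UMIs than the other chain. The part of doublets was not tested.

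Barcodes of the contig table that are not in the count table have no population. Of 5367 such barcodes with a productive α chain, 8.96% (481, 8.21 to 9.76) carried a restricted CDR3α, and 109 of the 136 members were seen among them. They were looked at because the comparisons leave them out. They may hold Treg-lineage cells, for which the members were chosen, so nothing about restriction is read from this share. Shared CDR3α were in 37.3% (36.0 to 38.6) and CD4 SP- or DP-only CDR3α in 4.02% (3.51 to 4.59) of the same barcodes. The members in the most of them were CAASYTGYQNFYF with 24, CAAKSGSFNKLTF with 22, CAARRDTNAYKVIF with 21 and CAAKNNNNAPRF with 17. Of the 5367 barcodes, only 2747 had exactly 1 productive α chain, and the rest had more. Among cells with a population, 6982 had exactly 1 such chain and 330 had 2. A barcode with more chains has more chances to carry a listed CDR3α. How far this raised these shares and the counts per member was not tested.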

How the results depend on the processing

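Of the alternatives to the counts and shares of restricted CDR3α, 48 values for the main results stayed within their 95% interval or within 1.5 times the count, and 16 did not. The 48 include the setting of at least 2 α UMIs, which every Treg-lineage cell met. Its values equalled the main ones and so tested nothing. With 3 or more Treg-lineage cells required, 59 CDR3α remained, in 272 cells, 49 of them with 2 or more rearrangements, and they covered 11.4% of CD73+ Tregs, 12.1% of CD73- Tregs, 4.54% of CD25+ TRP and 5.47% of Foxp3lo TRP cells. With 1 CD4 SP or DP cell allowed, 191 CDR3α were in 740 cells and covered 34.4%, 32.3%, 11.6% and 12.2% of these populations. Clonotypes defined by nucleotide sequence, V and J covered 30.7% of CD73+ Tregs and 8.19% of CD25+ TRP cells, and give no count of rearrangements per clonotype. The CD73+ Treg share was 15.7% without cluster 9, where 36 members were lost, and 25.7% without the 5% of cells with the most UMIs, which removes the DP cell of CAASAGYSNNRLTL. The term that asks for a Treg cell holds in each of these settings and favours Tregs over progenitors. By nucleotide sequence alone, a definition added after seeing the data, 82 members had 2 or more rearrangements. No paired analysis was possible because each population is 1 sample of 1 pool, and for the same reason no replicate could be left out. The 3115 CD4 SP and DP cells limit what absence means for any member, and 223 CD73- Tregs limit that population's values.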
